A study of Homo sapiens with 8 samples.

Results

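Base excision repair and nucleotide excision repair were described through 40 genes, chosen by symbol from a fixed list of glycosylases, gap-filling enzymes, poly(ADP-ribose) polymerases, damage-recognition factors, transcription factor IIH (TFIIH) subunits and nucleases. All 40 were among the 58828 genes of the count tables, and all 40 passed the filter on low counts, which left 22418 genes. The choice rule used their names and no threshold on a measured value, but the list was made with earlier results of these data known. The shares of members called beside all genes are therefore not an independent comparison.

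RNA was sequenced from 22RV1 and DU145, established lines of human prostate carcinoma cells. Both had been separately transduced with an empty lentiviral vector or with a vector carrying PAGE4, a cancer-testis antigen, behind a doxycycline-inducible promoter. The cells had been selected with puromycin, and per the study's methods all of them received doxycycline before collection, vector cells included. Each of the 4 cultures was treated with PBS or, as the labels give the dose, with 200 mM H2O2 for 12 h, which gave 8 conditions with 1 library each. Each construct in a line was 1 culture, so that PAGE4 and the culture cannot be told apart, and the pairs of libraries of a line share its cultures. P-values therefore measure only the spread between these pairs, and not between independent cultures. In the H2O2 and PAGE4 fits over all 4 pairs, this spread includes any difference in effect between the lines. In the fits within a line, it includes any difference in effect between the pairs of that line, and part of it may be technical.

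Base excision repair removes small base lesions such as oxidised, deaminated or alkylated bases. A DNA glycosylase cuts out the damaged base, an AP endonuclease opens the strand, a polymerase fills the gap, a ligase closes it, and PARP enzymes and XRCC1 gather these proteins at the break. Nucleotide excision repair removes bulky lesions. The damage is found by XPC and the DDB complex anywhere in the genome or by a stalled RNA polymerase in transcribed genes, TFIIH opens the helix, XPA checks the lesion, and the nucleases ERCC1-ERCC4 and ERCC5 cut out the damaged strand. Hydrogen peroxide forms oxidised bases and strand breaks, which are mainly substrates of the base excision pathway.

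RefSeq promoter windows on GRCh38.p14, from 250 bases before to 50 bases after the annotated start, were matched for 37 of the 40 members. The windows of 4 members are shown because these members carry the main patterns of the H2O2 comparison, namely NEIL3 and TDP1, which fell in both lines, TDG, which rose in both, and UNG, which moved in opposite directions. Capitals mark matches to the motifs searched, and each window is written 5′ to 3′ on the strand of the gene, which is the plus strand for all 4 (NEIL3 chr4:177309624-177309923, TDP1 chr14:89955677-89955976, TDG chr12:103965622-103965921, UNG chr12:109097347-109097646).
NEIL3: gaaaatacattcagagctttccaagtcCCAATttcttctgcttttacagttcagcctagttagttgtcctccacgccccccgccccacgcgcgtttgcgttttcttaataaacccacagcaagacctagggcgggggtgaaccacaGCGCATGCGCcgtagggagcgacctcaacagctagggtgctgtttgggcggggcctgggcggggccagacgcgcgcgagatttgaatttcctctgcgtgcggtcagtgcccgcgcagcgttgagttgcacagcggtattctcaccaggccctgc
TDP1: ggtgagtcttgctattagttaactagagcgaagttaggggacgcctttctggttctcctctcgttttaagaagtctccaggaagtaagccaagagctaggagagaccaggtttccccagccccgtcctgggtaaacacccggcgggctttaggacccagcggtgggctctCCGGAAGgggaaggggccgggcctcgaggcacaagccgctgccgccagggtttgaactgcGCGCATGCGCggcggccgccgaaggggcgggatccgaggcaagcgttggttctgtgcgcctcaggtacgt
TDG: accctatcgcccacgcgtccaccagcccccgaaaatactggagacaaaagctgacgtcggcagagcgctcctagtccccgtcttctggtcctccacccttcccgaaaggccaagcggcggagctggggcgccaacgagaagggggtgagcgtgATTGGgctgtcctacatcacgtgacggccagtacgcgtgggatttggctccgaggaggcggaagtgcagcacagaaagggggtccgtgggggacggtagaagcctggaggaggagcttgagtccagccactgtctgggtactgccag
UNG: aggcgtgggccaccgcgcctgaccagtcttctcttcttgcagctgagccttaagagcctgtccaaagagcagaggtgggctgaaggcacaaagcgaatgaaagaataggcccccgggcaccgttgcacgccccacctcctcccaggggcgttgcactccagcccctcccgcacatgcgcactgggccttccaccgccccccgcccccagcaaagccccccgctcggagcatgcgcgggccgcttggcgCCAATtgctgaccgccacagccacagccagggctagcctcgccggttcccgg

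The capitals in NEIL3 and TDP1 include the NRF1-type letters GCGCATGCG, which also read CGCATGCGC on the other strand, beginning at -104 and -20 from the start, where the start itself is position 0. NEIL3 also holds the CCAAT box at -223. The ETS-type letters CCGGAAG stand at -80 in TDP1. A CCAAT box stands on the other strand of TDG, as ATTGG at -97. The CCAAT box of UNG is at -2. The NRF1 letters (GCGCATGCG or GCGCCTGCG, either strand) were in 24.3% of the 37 member windows and in 5.4% of 35116 RefSeq windows of the same length. CCGGAAG was in 32.4% of member windows and 10.3% of all, CCAAT in 43.2% and 34.6%, and the antioxidant-response letters TGACNNNGC in 18.9% and 13.3%. The E2F-type letters (TTTCCCGC, TTTCGCGC, TTTGCCGC or TTTGGCGC) and TATAAA were in 0.0% of member windows, against 3.3% and 11.5% of all windows. Median GC content was 64.3% in the members and 58.7% over all windows. No motif was common to all the members that H2O2 moved. Of those called over the 4 pairs, PARP1 and NUDT1 held none of the 6 motifs, NTHL1 held ETS and antioxidant-response letters, CETN2 held CCAAT and antioxidant-response letters, ERCC2 held CCAAT, and POLL and APTX held ETS letters. Only the first listed window of each member was searched, while the windows of all genes were not reduced to 1 per gene. The window of NUDT1 (chr7:2249061-2249360) lies inside the gene as GENCODE annotates it, and other starts were not searched. These matches describe letters and were not tested as binding sites.

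Total counts ranged from 25482984 to 43310401 per library. PAGE4 was at 36.9 to 57.0 CPM (counts scaled to a common library total) in the 4 PAGE4 libraries and at no more than 0.0401 in the 4 vector libraries. The labels of the lines held for KLK2, KLK3, TMPRSS2 and HOXB13, which were at 0.146 CPM or less in every DU145 library, and for VIM, CAV1 and S100A2, which were higher in every DU145 than in every 22RV1 library. CD44 and LGALS1, also listed as DU145 markers, overlapped between the lines, and TRPM8 and KRT5 were at 0.279 CPM or less in all 8 libraries. The 5 immune markers summed to at most 2.22 CPM. The 5 stromal markers summed to 7.78 to 28.0 CPM, most of it COL1A1, with COL1A2 and DCN at 0.381 CPM or less.

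All levels are given as CPM after trimmed-mean (TMM) normalisation, and levels of different genes are compared per kilobase (kb) of the Ensembl canonical transcript. In the plot of levels per transcript length, PARP1, the main poly(ADP-ribose) polymerase, was the most abundant member in PBS-treated 22RV1 cells at 205 CPM per kb (mean of 2 libraries), ahead of the AP endonuclease APEX1 at 113, DDB1 at 95.5 and the uracil glycosylase UNG at 84.7. In DU145 the same 4 genes and RAD23B led, with APEX1 at 203, PARP1 at 152, DDB1 at 112, RAD23B at 91.6 and UNG at 67.4 CPM per kb. The lowest levels in both lines were those of the TFIIH subunit GTF2H4 (0.371 and 0.0968) and the transcription-coupled factors ERCC8 (0.757 and 0.874) and ERCC6 (1.33 and 0.552). GTF2H4 had only 1, 2, 8 and 5 counts in the DU145 libraries, and 79.7% of its annotated exonic bases lie in another gene on the same strand, where the counting setting decides whether a read is kept. Per-length levels use 1 transcript per gene, and the isoforms used by these cells were not analysed here.

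**Figure D1:**
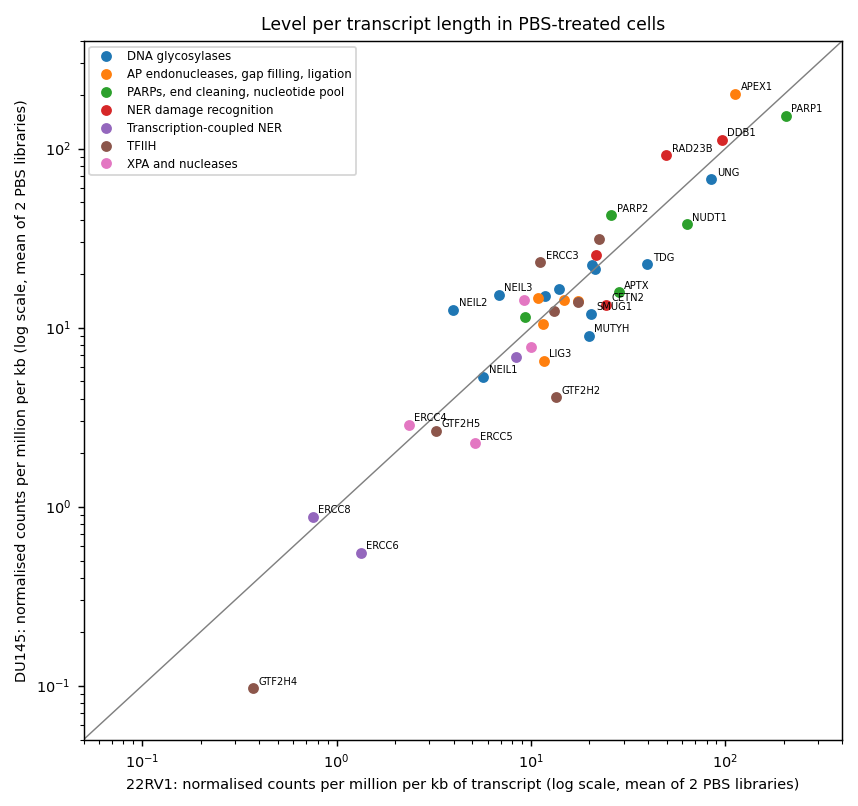
Level of the 40 members per transcript length in 22RV1 (x axis) and DU145 (y axis), in normalised CPM per kb on log scales, each point the mean of 2 PBS libraries of a line and coloured by role. Names are drawn for members away from the crowded centre; PARP1, APEX1 and DDB1 sit at the top right, ERCC6, ERCC8 and GTF2H4 at the bottom left, and GTF2H2, MUTYH and ERCC5 lie below the line of equal level while NEIL2 and ERCC3 lie above it.

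What H2O2 did to the excision repair genes was asked first in the 4 pairs together and then within each line. Over the 4 pairs, 7 of 40 members were lower with H2O2 and 3 were higher in edgeR's quasi-likelihood test with Benjamini-Hochberg adjustment over all genes (adjusted p under 0.05), which is 17.5% and 7.5% of the members beside 11.2% and 8.89% of all 22418 genes. The members that fell were NEIL3, NTHL1, PARP1, TDP1, NUDT1, CETN2 and ERCC2, and those that rose were TDG, POLL and APTX. In GENCODE on GRCh38, the genes lie at chr16:2039815-2047866 (NTHL1, minus strand), chr1:226360210-226408154 (PARP1, minus), chr7:2242226-2251146 (NUDT1, plus), chrX:152826994-152830757 (CETN2, minus), chr19:45349837-45370918 (ERCC2, minus), chr10:101578882-101588270 (POLL, minus) and chr9:32886601-33025130 (APTX, minus). In 22RV1, 12 members fell (30%, beside 14.9% of all genes) and 6 rose (15%, beside 12.8%). In DU145, 14 fell (35%, beside 19.8%) and 11 rose (27.5%, beside 16.9%). With 1 pair left out, the count over the 4 pairs went from 10 to 6 (22RV1 vector), 11 (22RV1 PAGE4), 5 (DU145 vector) and 6 (DU145 PAGE4). In 22RV1 it went from 18 to 9 without the 22RV1 vector pair, and in DU145 from 25 to 13 without either DU145 pair. The members were expressed above the typical gene, with a median of 32.5 CPM against 6.79 over all genes tested, and the part of level in these shares was not tested.

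In all 4 pairs, 16 members were lower with H2O2 (40%, beside 21.5% of all genes) and 8 were higher (20%, beside 19.2%). Within lines, 8 members were called lower in both lines (beside 8.62% of all genes), 3 were called higher in both (6.7%), and UNG was called in opposite directions (1.83%). The 9 members called in neither line (beside 52.8% of all genes) were OGG1, SMUG1, MPG, LIG3, GTF2H2, GTF2H4, XPA, ERCC1 and ERCC4. The median log2 fold change of the members was -0.11 over the 4 pairs, against -0.03 over all genes. With total counts in place of TMM scaling, the median of all genes rose by 0.12 on the log2 scale in 22RV1, and the 18 member calls there (6 higher, 12 lower) became 9 higher and 7 lower. Over the 4 pairs, total counts gave 8 members higher and 7 lower. The balance of directions therefore depends on the scaling, while no member called in any comparison changed sign under any setting.

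**Figure D2:**
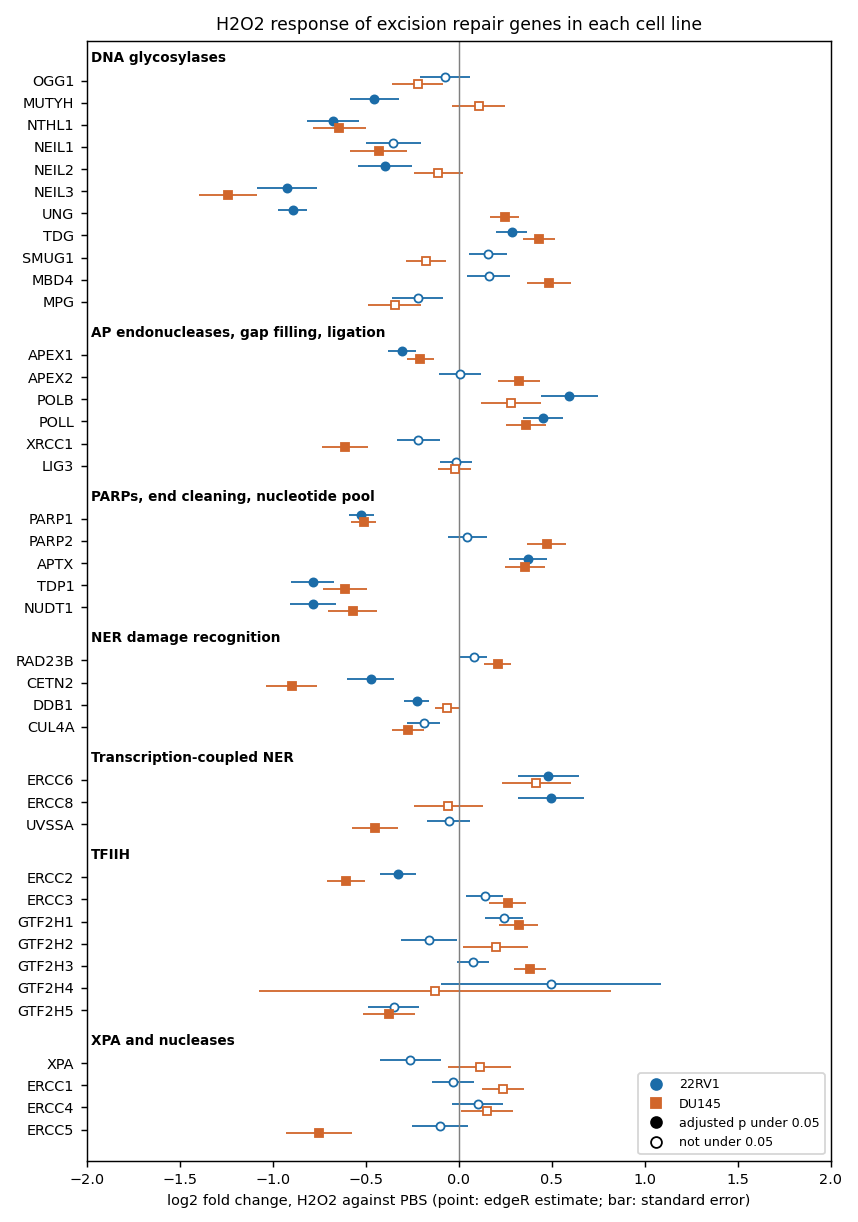
Log2 fold change of each member with H2O2 against PBS (x axis) in 22RV1 (blue circles) and DU145 (orange squares), grouped by role, with edgeR estimates as points and standard errors as bars, 2 pairs of libraries per line. Filled points had an adjusted p under 0.05; NEIL3, NTHL1, TDP1, NUDT1, PARP1 and CETN2 lie left of 0 in both lines, TDG, POLL and APTX lie right of it, and UNG lies on opposite sides.

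Among the 11 glycosylases, NEIL3 fell most and TDG rose. NEIL3, which excises oxidised bases from single-stranded and crosslinked DNA and is known from dividing cells, was at 15.5 CPM in 22RV1 vector cells with PBS and 7.74 with H2O2, and at 16.7 and 9.33 in PAGE4 cells. In DU145 it was at 38.9 and 13.2 CPM in vector cells and at 33.3 and 17.5 in PAGE4 cells. It was thus lower with H2O2 in 4 of 4 pairs, although the treated DU145 levels overlapped the untreated 22RV1 levels. The log2 fold change was -1.08 (SE 0.15, adjusted p = 0.004) over the 4 pairs, -0.92 (SE 0.16) in 22RV1 and -1.24 (SE 0.16) in DU145, and the difference of -0.32 between the lines (SE 0.22) was not past the threshold (adjusted p = 0.39).

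NTHL1, the glycosylase for oxidised pyrimidines, fell from 20.4 to 11.4 CPM in 22RV1 vector cells and from 22.3 to 15.6 in PAGE4 cells. In DU145 it went from 21.1 to 13.5 in vector cells and from 25.0 to 16.0 in PAGE4 cells, so that every treated library lay below every untreated one. Its log2 fold change over the 4 pairs was -0.66 (SE 0.12, adjusted p = 0.0096). TDG, which removes mismatched thymine and oxidised methylcytosine and takes part in DNA demethylation, went the other way, from 125 to 158 CPM in 22RV1 vector cells and from 128 to 150.1 in PAGE4 cells. In DU145 it rose from 74.7 to 104 and from 68.8 to 89.7 CPM, and its log2 fold change over the 4 pairs was 0.36 (SE 0.09, adjusted p = 0.025). TDG was called in all 4 pairs together, but its call was lost without the 22RV1 vector pair (adjusted p = 0.085), the DU145 vector pair (0.13) or the DU145 PAGE4 pair (0.097).

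Apart from UNG, the remaining glycosylases were called in 1 line or in neither. In 22RV1, MUTYH, which removes adenine opposite 8-oxoguanine, fell by 0.45 on the log2 scale (adjusted p = 0.015), and NEIL2, another oxidised-base glycosylase, fell by 0.40 (adjusted p = 0.049). Without the 22RV1 vector pair, neither was called (MUTYH adjusted p = 0.25, NEIL2 0.51), and NEIL2 was also lost without either DU145 pair (0.075 and 0.077). In DU145, NEIL1 fell by 0.43 (adjusted p = 0.035) and MBD4, which acts at CpG sites, rose by 0.48 (adjusted p = 0.0032), both calls being lost without the DU145 PAGE4 pair (0.64 and 0.13). OGG1, the glycosylase for 8-oxoguanine itself, was at 21.0 to 23.5 CPM in 22RV1 and 19.9 to 27.5 in DU145, with log2 fold changes of -0.08 (SE 0.14) and -0.22 (SE 0.14), neither past the threshold. SMUG1 and MPG were not called in either line. MUTYH, OGG1, NEIL1 and MPG share 29.0% to 40.1% of their exonic bases with other annotated genes, as do XRCC1, LIG3, ERCC1 and ERCC5 (28.2% to 33.0%), and whether the counting used strand is not given in the sources used here.

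UNG was the 1 member whose response to H2O2 differed between the lines in the test of the difference, which called 16.3% of all genes. UNG, which removes uracil from DNA and is strongest in S phase, went from 156 to 84.0 CPM in 22RV1 vector cells and from 191 to 103 in PAGE4 cells. In DU145 it went from 134 to 158 and from 142 to 169.7 CPM. The treated libraries were thus the lowest in 22RV1 and the highest in DU145, with no overlap in either line. The log2 fold change was -0.89 (SE 0.08, adjusted p = 2.2e-07) in 22RV1 and 0.25 (SE 0.08, adjusted p = 0.02) in DU145, and the difference was 1.14 (SE 0.11, adjusted p = 2e-06). Leaving out any pair kept the difference between 1.14 and 1.19, whereas the rise within DU145 lost its call without the DU145 vector pair (0.25, adjusted p = 0.18) or the DU145 PAGE4 pair (0.24, adjusted p = 0.23). Over the 4 pairs together, UNG was not called (-0.32, adjusted p = 0.34). MCM2, a replication helicase subunit on the list of proliferation genes, also fell in 22RV1 (-0.64) and rose in DU145 (0.30, adjusted p = 0.0062; 0.0998 without the DU145 PAGE4 pair). MCM2 was the 1 gene of the 10 on that list called higher in DU145, where 7 were called lower. Of all genes, 16.9% were called higher and 19.8% lower in DU145. The part of MCM2 in the UNG result was not tested.

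**Figure D3:**
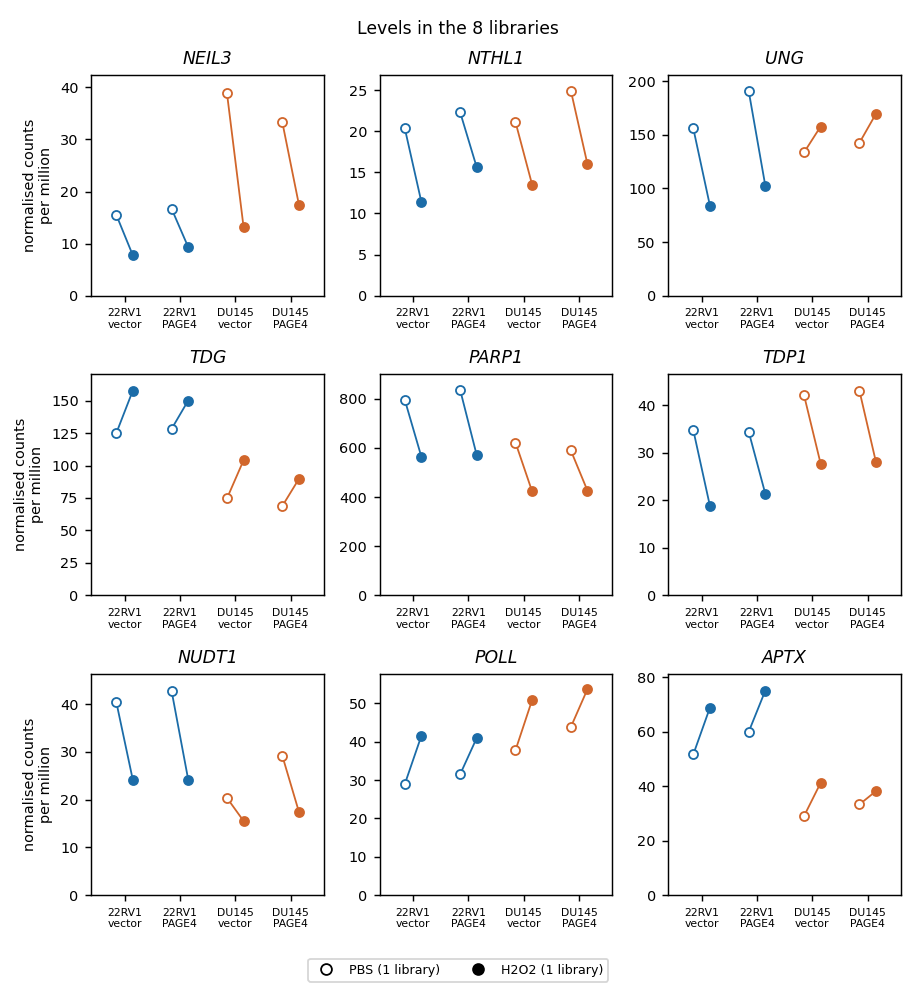
Normalised CPM (y axis, from 0) of 9 members in each culture (x axis), with the PBS library as an open point joined to the H2O2 library as a filled point, 22RV1 in blue and DU145 in orange. NEIL3, NTHL1, PARP1, TDP1 and NUDT1 slope down in all 4 cultures, TDG, POLL and APTX slope up, and UNG slopes down in 22RV1 and up in DU145.

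Of the 6 genes for AP endonucleases, gap filling and ligation, POLL rose in both lines and APEX1 fell in both. POLL, the DNA polymerase lambda used in gap filling and end joining, went from 28.9 to 41.5 and from 31.5 to 41.0 CPM in 22RV1 vector and PAGE4 cells, and from 37.8 to 50.9 and from 43.8 to 53.7 in DU145. Its log2 fold change over the 4 pairs was 0.41 (SE 0.10, adjusted p = 0.025). This call was lost without the 22RV1 vector, DU145 vector or DU145 PAGE4 pair (adjusted p = 0.091, 0.11 and 0.068). The POLL call within 22RV1 was lost without the 22RV1 vector pair (0.37). Within DU145 it was lost without the vector pair (0.29) or the PAGE4 pair (0.43). POLB, the main gap-filling polymerase of base excision repair, rose by 0.59 in 22RV1 (SE 0.15, adjusted p = 0.0071), from 14.7 to 22.5 and from 14.99 to 22.2 CPM. In DU145, POLB was at 16.1 and 16.0 CPM in vector cells and at 11.02 and 16.4 in PAGE4 cells, and 0.28 (SE 0.16) was not past the threshold. The difference in POLB response between the lines was not past it either (-0.32, SE 0.22, adjusted p = 0.39).

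APEX1, the main AP endonuclease, fell by 0.31 (adjusted p = 0.0054) in 22RV1 and by 0.21 (adjusted p = 0.039) in DU145. Its DU145 call was lost without the vector pair (-0.26) or the PAGE4 pair (-0.16). That call was also lost with DESeq2 size factors, total counts, no filter or DESeq2's Wald test. The 22RV1 call of APEX1 was lost with total counts. XRCC1, the scaffold of single-strand break repair, fell by 0.61 in DU145 (SE 0.12, adjusted p = 0.00069), from 28.2 to 18.1 and from 29.4 to 19.6 CPM, and was at -0.22 (SE 0.12, adjusted p = 0.19) in 22RV1. The difference of -0.40 between the lines had adjusted p = 0.13. The call of APEX2 in DU145 (0.32) rested on the vector pair, without which the value was 0.08 (adjusted p = 0.83). LIG3, the XRCC1-bound ligase, was at 90.9 to 103 CPM in 22RV1 and 53.2 to 56.0 in DU145, with log2 fold changes of -0.02 (SE 0.09) in both lines.

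PARP1, TDP1 and NUDT1 fell together and APTX rose. PARP1, which senses strand breaks and builds poly(ADP-ribose), went from 796 to 564 and from 837 to 570.4 CPM in 22RV1, and from 622 to 424 and from 589.9 to 426 in DU145. Every treated library was below every untreated library. The log2 fold change was -0.52 in 22RV1 and -0.51 in DU145 (SE 0.07 each), and over the 4 pairs the fall had adjusted p = 0.0051. TDP1, which frees DNA ends from trapped topoisomerase I, went from 34.7 to 18.8 and from 34.4 to 21.4 CPM in 22RV1 and from 42.1 to 27.7 and from 43.0 to 28.0 in DU145 (-0.70 over the 4 pairs, SE 0.11, adjusted p = 0.0053).

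NUDT1, also known as MTH1, which clears oxidised nucleotides from the precursor pool, went from 40.5 to 24.1 and from 42.8 to 24.2 CPM in 22RV1. In DU145 the vector cells held 20.4 and 15.5 CPM and the PAGE4 cells 29.2 and 17.4. The log2 fold change of NUDT1 was -0.68 over the 4 pairs (SE 0.12, adjusted p = 0.0084), and its call within DU145 was lost without the DU145 PAGE4 pair (-0.39, adjusted p = 0.19). APTX, which removes AMP left by failed ligation, was higher with H2O2 in every pair, from 51.7 to 68.9 and from 60.0 to 75.1 CPM in 22RV1 and from 29.0 to 41.2 and from 33.3 to 38.2 in DU145. Its log2 fold change was 0.36 (SE 0.10, adjusted p = 0.037), and it was not called when any of the 4 pairs was left out (adjusted p from 0.070 to 0.17). PARP2 rose in DU145 (0.47, SE 0.10, adjusted p = 0.0017), from 81.5 to 107 and from 73.7 to 108 CPM, was at 0.05 (SE 0.11) in 22RV1, and lost its DU145 call without the PAGE4 pair (adjusted p = 0.070). The lines differed in PARP2 response by 0.43 (SE 0.15, adjusted p = 0.061).

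Among the 4 damage-recognition members, CETN2 fell in both lines. CETN2, the centrin that sits in the XPC complex and also at centrosomes, went from 33.7 to 25.2 and from 35.2 to 24.2 CPM in 22RV1 and from 18.9 to 10.5 and from 19.0 to 9.79 in DU145. Its log2 fold change was -0.68 over the 4 pairs (SE 0.13, adjusted p = 0.012; 0.052 without the DU145 vector pair). The other damage-recognition members were called in 1 line each. RAD23B, which stabilises XPC, was higher by 0.21 in DU145 (adjusted p = 0.032, lost without either DU145 pair, 0.42 and 0.11) and at 0.08 (SE 0.07) in 22RV1. DDB1, the adaptor of the CUL4 ubiquitin ligase, fell by 0.23 in 22RV1 (adjusted p = 0.019; 0.10 without the vector pair), and its scaffold CUL4A fell by 0.27 in DU145 (adjusted p = 0.02; 0.60 without the vector pair).

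XPC and DDB2, the lesion sensors that work with these members but are not on the list of 40, moved more than any of them in 22RV1. XPC went from 34.8 to 82.3 and from 40.1 to 82.6 CPM in 22RV1 and from 30.0 to 40.4 and from 27.5 to 35.7 in DU145. Its log2 fold change was 1.14 (SE 0.10) in 22RV1 and 0.40 (SE 0.11) in DU145, a difference of -0.74 (SE 0.15, adjusted p = 0.0019). The DU145 rise of XPC lost its call without either DU145 pair (adjusted p up to 0.12). DDB2 rose in 22RV1, from 29.1 to 71.6 and from 40.3 to 73.6 CPM, and fell in DU145, from 35.8 to 23.4 and from 31.1 to 22.2. The log2 values of DDB2 were 1.08 (SE 0.12) and -0.55 (SE 0.12), which differed by -1.63 (SE 0.17, adjusted p = 4e-06), and the DU145 value missed the threshold without the DU145 vector pair (adjusted p = 0.051).

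**Figure D4:**
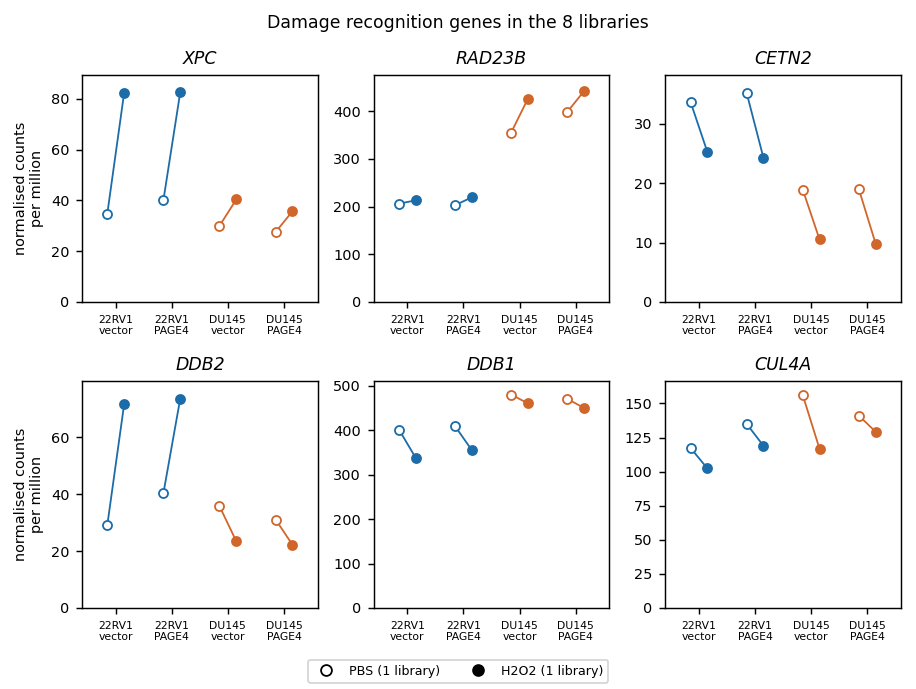
Normalised CPM (y axis, from 0) of the XPC-complex genes (top) and DDB2-complex genes (bottom) in each culture, with PBS libraries as open points and H2O2 libraries as filled points, 22RV1 in blue and DU145 in orange. XPC goes from 34.8 and 40.1 CPM to 82.3 and 82.6 in 22RV1, DDB2 rises in 22RV1 and falls in DU145, and CETN2 falls in all 4 cultures.

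In transcription-coupled repair, ERCC6 and ERCC8, which recognise the stalled polymerase, were higher in 22RV1, and UVSSA, which joins them to TFIIH, was lower in DU145. ERCC6 went from 12.1 to 18.4 and from 11.9 to 15.2 CPM in 22RV1 (0.48, SE 0.16, adjusted p = 0.036; 0.39 without the vector pair) and from 4.38 to 5.74 and from 5.56 to 7.56 in DU145 (0.42, SE 0.19, adjusted p = 0.094). It was thus higher in 4 of 4 pairs. ERCC8 rose by 0.49 in 22RV1 (adjusted p = 0.048), a call lost on leaving out any of the 4 pairs (adjusted p from 0.072 to 0.28). UVSSA fell by 0.45 in DU145 (SE 0.12, adjusted p = 0.0074; 0.18 without the PAGE4 pair), from 32.1 to 24.9 and from 33.6 to 23.2 CPM. None of these 3 responses differed between the lines past the threshold.

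The 7 TFIIH genes did not move as a block. ERCC2, the XPD helicase, was lower in every pair, from 68.1 to 51.2 and from 75.7 to 63.9 CPM in 22RV1 and from 56.1 to 39.1 and from 57.8 to 35.6 in DU145 (-0.47 over the 4 pairs, SE 0.11, adjusted p = 0.02). ERCC2 lost this call without the 22RV1 vector, DU145 vector or DU145 PAGE4 pair (adjusted p from 0.063 to 0.081). ERCC3, the XPB translocase of the same complex, and GTF2H1 and GTF2H3, core subunits, were higher in all 4 pairs and called in DU145, by 0.26, 0.32 and 0.38. GTF2H3 went from 99.7 to 136 and from 109 to 137 CPM there. The DU145 calls of ERCC3 and GTF2H1 were lost without either DU145 pair (adjusted p from 0.19 to 0.43), and that of GTF2H3 without the vector pair (0.11). GTF2H5, the smallest subunit, fell by 0.38 in DU145 (adjusted p = 0.044; up to 0.37 with 1 DU145 pair left out). GTF2H2, whose near-identical copies GTF2H2B and GTF2H2C are counted apart in the tables, and GTF2H4 were not called.

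Of XPA and the 3 nuclease genes, 1 was called. XPA, which verifies the lesion, was at 10.1 to 14.1 CPM in the 8 libraries, and ERCC4, the XPF nuclease, at 15.5 to 21.9. ERCC1, the partner of ERCC4, was at 29.9 to 32.1 CPM in 22RV1 and 47.9 to 63.6 in DU145. ERCC5, the XPG nuclease that cuts on the 3′ side, was the called gene, with a fall of 0.75 in DU145 (SE 0.18, adjusted p = 0.0026), from 8.87 to 4.53 and from 8.73 to 5.97 CPM. In 22RV1 it was at -0.10 (SE 0.15), the lines differed by -0.65 (SE 0.23, adjusted p = 0.068), and without the DU145 vector pair the DU145 value was -0.55 (adjusted p = 0.14). The read-through gene BIVM-ERCC5, which shares exons with ERCC5, was listed at 0 in all 8 libraries. ERCC6-PGBD3 was also listed at 0 in all 8. How reads in shared exons were counted is not given in the sources used here. These values therefore do not show whether reads of ERCC5 or ERCC6 were lost.

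The other 35 excision repair genes of a fixed list, which take part in these pathways beside the 40 members, were described by the same test. Over the 4 pairs, 11 fell (beside 11.2% of all genes) and 2 rose (beside 8.89%), and 22 were not called. POLD1, the catalytic subunit of the repair and replication polymerase delta, fell by 0.81 (SE 0.08, adjusted p = 0.0012), and the replication ligase LIG1 by 0.71 (SE 0.13, adjusted p = 0.009). RPA3 and RPA1, which coat single-stranded DNA, fell by 0.61 and 0.45, though RPA1 missed the threshold without the DU145 vector pair (adjusted p = 0.057). Those that rose were XPC (0.78, adjusted p = 0.015) and POLE4 (0.42, adjusted p = 0.047), the latter lost without any of 3 pairs (adjusted p up to 0.22). Many of these genes also serve replication. The 10 proliferation genes (MKI67, TOP2A, CCNA2, CCNB1, CDK1, BUB1, MCM2, MCM5, CCNE2 and E2F1) summed to 2302 and 2345 CPM with PBS and 1081 and 973 with H2O2 in 22RV1, and to 2701 and 2643 with PBS and 1502 and 1661 with H2O2 in DU145. Over the 4 pairs, 7 of the 10 fell and 0 rose (beside the same 11.2% and 8.89% of all genes), E2F1 being lost without the 22RV1 vector pair (adjusted p = 0.059). Mitochondrial genome transcripts were 10.2% to 16.5% of counts with PBS and 8.97% to 11.2% with H2O2. The part of either in the member results was not tested, and in these bulk libraries fewer dividing cells and less RNA per cell cannot be told apart.

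Whether PAGE4 altered the excision repair genes under oxidative stress was the question closest to the design. No member was called in the comparisons of this paragraph, and the PAGE4 comparison within 22RV1 follows in the next. The response to H2O2 did not differ between PAGE4 and vector cells past the threshold for any member in edgeR's test (0 of 40, beside 0.0% of all genes), and DESeq2's Wald test also called 0. At an unadjusted p under 0.05 there were 0 members in either tool, and 59 genes of all in edgeR and 21 in DESeq2. These 2 fits had no term for a difference in H2O2 response between the lines, so that difference counted as spread. It was called for 16.3% of all genes in its own test. The fits could therefore call few genes, and cannot show that PAGE4 left the response unchanged. PAGE4 against vector over both lines and treatments called 0 members, beside 0.174% of all genes, and DESeq2 called 0. In both tools this fit had no term for a difference in PAGE4 effect between the lines, so that difference counted as spread. It therefore cannot show that PAGE4 left the members unchanged. At an unadjusted p under 0.05 there were 2 members in each of these tools, in edgeR NTHL1 (0.26, SE 0.10) and UNG (0.20, SE 0.07), with adjusted p = 0.58 and 0.48. Within DU145, 0 members were called by either tool (0.17% of all genes in edgeR), with 1 at an unadjusted p under 0.05, which in edgeR was NUDT1 (0.35, SE 0.13, adjusted p = 0.50). The PAGE4 effect differed between the lines for 0 members in both tools (1.84% of all genes in edgeR), with 1 at an unadjusted p under 0.05, in edgeR NEIL1 (-0.55, SE 0.21, adjusted p = 0.26). In the levels of NEIL1, PAGE4 libraries were above vector libraries in 22RV1 at matched treatment (22.7 against 19.6 CPM with PBS, 19.3 against 14.1 with H2O2), and in DU145 were at 19.7 against 19.6 and at 12.3 against 17.1.

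Within 22RV1, UNG was the 1 member called with PAGE4, higher by 0.29 (SE 0.08, adjusted p = 0.043), beside 2.15% of all genes called higher. It was at 191 against 156 CPM with PBS and 103 against 84.0 with H2O2, so the PAGE4 library was higher at both treatments. The call was lost when any of the 4 pairs was left out (adjusted p from 0.070 to 0.12) and with total counts as the scale. The treated levels of UNG lay below the untreated levels in both 22RV1 cultures, and the fall with H2O2 was -0.89 (95% interval -0.95 to -0.83) in vector cells and -0.90 (-0.96 to -0.83) in PAGE4 cells, where the Clopper-Pearson interval covers counting error only.

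The study's methods name a fold change over 1.5 as the rule for a changed gene, and a count minimum was added to it here. Normalised counts with H2O2 were compared between PAGE4 and vector cells. In 22RV1, 0 of 40 members passed, beside 23.2% of 20264 genes, and in DU145 0 of 39, beside 15.2% of 18088 genes. The rule compares 1 library with 1 library and has no replicate check. Fewer genes passed it at a higher count minimum, as given in the last section. The members were at a median of 32.5 CPM, against 6.79 over all genes tested in edgeR. The part of level in these shares was not tested. The required mean normalised count of at least 10 and the pseudocount of 0.5 were set here and are not in the study's methods. GTF2H4 did not reach this minimum in DU145, and passed the fold there when no minimum was set. Members in 22RV1 ranged from -0.31 for PARP2 to 0.52 for NEIL2 on the log2 scale, with 27 above and 13 below 0 and a median of 0.08. NEIL2 had a 95% Clopper-Pearson interval of 0.27 to 0.77, which covers counting error only, and NTHL1 (0.45), NEIL1 (0.44) and GTF2H2 (0.47) followed. In DU145 the range was from -0.46 for NEIL1 (interval -0.67 to -0.24) to 0.42 for NEIL3 (0.21 to 0.63), with 20 above and 19 below 0 and a median of 0.02. The interval lay above 0 for 19 members and below 0 for 6 in 22RV1, and for 9 and 6 in DU145, and the spread between cultures cannot be had from 1 library each. With PBS, the members ranged from -0.25 to 0.32 in 22RV1 and from -0.54 (POLB) to 0.52 (NUDT1) in DU145.

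**Figure D5:**
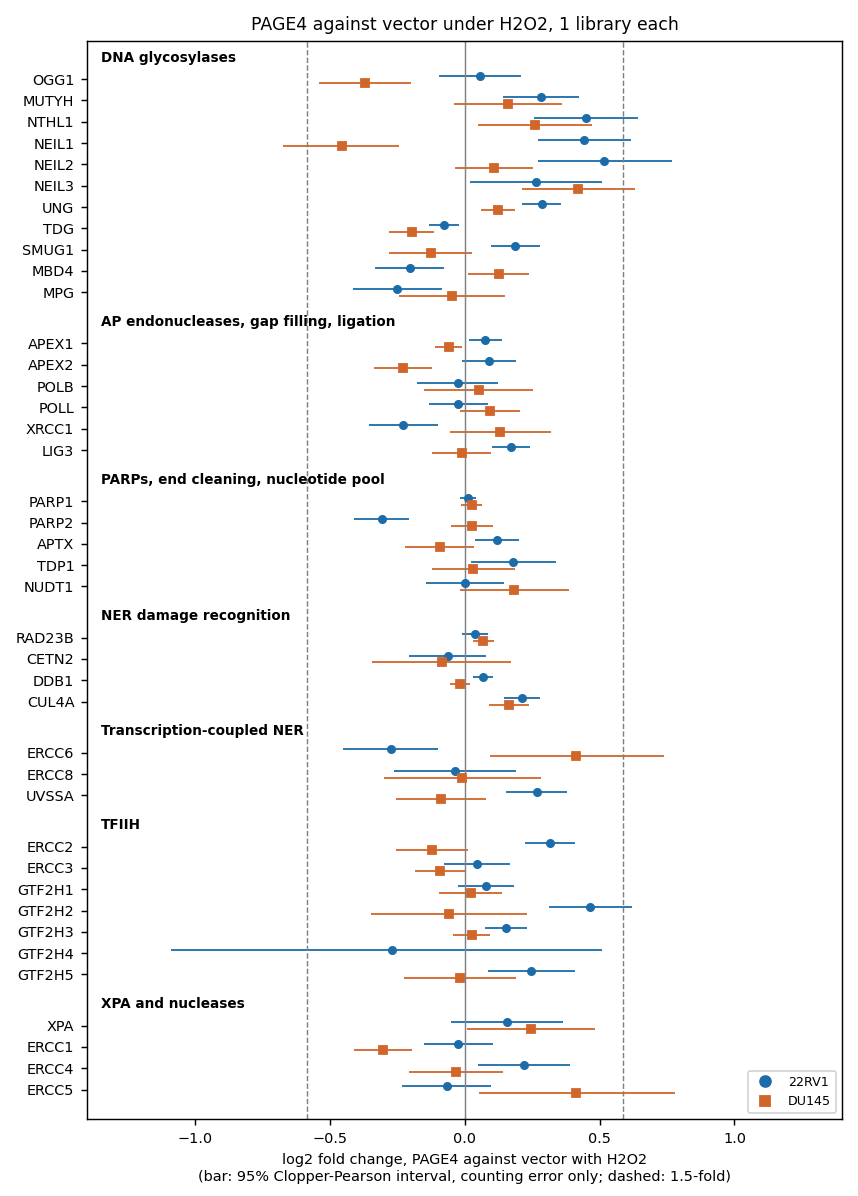
Log2 fold change of PAGE4 against vector cells with H2O2 (x axis) for each member by role, 1 library against 1 library in 22RV1 (blue circles) and DU145 (orange squares), with 95% Clopper-Pearson intervals for counting error as bars and dashed lines at 1.5-fold. All points lie between the dashed lines; GTF2H4 is drawn for 22RV1 only, because it did not reach the count minimum in DU145.

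The level of the members was also compared between the lines. Between DU145 and 22RV1, 12 members were higher in DU145 (30%, beside 28.5% of all genes) and 15 were lower (37.5%, beside 31.9%) over the 4 matched pairs of conditions. NEIL2 was at 32.8, 30.5, 35.2 and 32.5 CPM in DU145 and at 10.3, 6.81, 11.3 and 9.79 in 22RV1, a log2 difference of 1.80 (SE 0.15, adjusted p = 2.2e-05). ERCC3 was higher in DU145 by 1.11 (SE 0.10), NEIL3 by 1.00 (SE 0.15), RAD23B by 0.94 (SE 0.09), PARP2 by 0.93 (SE 0.13) and APEX1 by 0.90 (SE 0.09). Those lower in DU145 included GTF2H2 (-1.54, SE 0.17), ERCC5 (-1.504, SE 0.20), ERCC6 (-1.31, SE 0.18), CETN2 (-1.07, SE 0.14), SMUG1 (-0.93, SE 0.13) and MUTYH (-0.87, SE 0.17). The copies of GTF2H2 went both ways: GTF2H2B had 379 to 551 counts in 22RV1 and 75 to 107 in DU145, and GTF2H2C 250 to 359 in 22RV1 and 484 to 562 in DU145, and how reads common to these copies were assigned is not given in the sources used here. GTF2H4 was also lower (-2.40, SE 0.64, adjusted p = 0.011) on 1 to 8 counts per library in DU145.

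For 22 of the 27 members, the difference between the lines was kept on leaving out any pair. TDP1 (0.39, adjusted p = 0.021) was not called without any of the 4 pairs (adjusted p from 0.054 to 0.095), DDB1 not without 3 of them (up to 0.099), POLL and UVSSA not without 2 (up to 0.067), and XRCC1 not without the vector pair with H2O2 (0.058). NEIL3 kept its higher DU145 level with PBS (38.9 and 33.3 against 15.5 and 16.7 CPM), and with H2O2 too (13.2 and 17.5 against 7.74 and 9.33). UNG was not called between the lines (0.25, adjusted p = 0.37); it was higher in 22RV1 with PBS and higher in DU145 with H2O2.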

How the data were processed

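RNA-seq libraries of the 8 conditions were analysed from the gene count tables of 22RV1 and DU145. The authors deposited raw counts per gene, without normalisation; per the labels, reads were mapped to GRCh38 (hg38) with HISAT2 2.1.0 and counted with featureCounts 1.6.0. The annotation and strand setting are not given in the sources used here. For extraction, Trizol is named in the labels and a column kit in the study's methods.

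Counts of all 58828 genes went through filterByExpr and TMM scaling, and edgeR 4.0.16 (R 4.3.3) gave the quasi-likelihood fits. Pairs of libraries were blocks: H2O2 against PBS within a culture, PAGE4 against vector within a line and treatment, and DU145 against 22RV1 within a construct and treatment. Line-specific effects and their differences were fitted with the spread shared by both lines. P-values were two-sided and adjusted by Benjamini-Hochberg over 22418 genes, with calls at an adjusted p under 0.05. The fold rule used DESeq2 1.42.0 size factors within a line, a pseudocount of 0.5, a mean normalised count of at least 10 and a fold over 1.5, on the log2(normalised count + 0.5) scale, with 95% Clopper-Pearson intervals from the conditional binomial share. Counts per kb used GENCODE release 44 on GRCh38. Python 3.11.15, pandas 2.3.3 and scipy 1.17.1 were used for summaries. Some of the edgeR comparisons were also run on simulated counts, and the outcome is not given here. The simulated libraries had no differences between cultures of a line and the same H2O2 effect in both lines. That run therefore does not cover the shared cultures, and it left out the comparison of H2O2 response between PAGE4 and vector.

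All 40 members were to be named, with fold changes for those called. XPC, DDB2, MCM2 and the other partners given with values were chosen after their values were seen, and the promoters shown were chosen for the response of their genes. The members and gene lists were chosen with earlier results of these data known. The alternatives were DESeq2 size factors, total counts, no mitochondrial genes, no filter, DESeq2's Wald test, other blocks, each pair left out and, for the fold rule, other size factors, minimums, folds, a pseudocount of 1 and the PBS libraries. Protein data and the xenografts were not analysed here. A few genes of the lists are counted but not reported by name here.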

Additional observations from a re-analysis of the deposited data

Results flagged for a closer look

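The response to H2O2 differed between the lines, in the edgeR test of the difference itself (DU145 minus 22RV1, log2 scale, adjusted p under 0.05 over all genes), for UNG among the members, with 1.14.

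Among the other excision repair genes, the difference was -1.63 for DDB2, -0.74 for XPC, -1.41 for POLD4, -1.74 for APLF, -0.55 for LIG1, -0.51 for CUL4B and -0.43 for MMS19. It was 0.65 for POLE3, 0.61 for RFC3, 0.56 for RFC2, 0.56 for RFC5, 0.51 for CCNH, 0.49 for RFC4 and 0.44 for FEN1. Leaving out 1 pair of libraries ended the call of APLF, CCNH, CUL4B, FEN1, LIG1, MMS19, RFC3, RFC4 and RFC5 for at least 1 of the 4 pairs, with adjusted p up to 0.28. POLD4, the small subunit of polymerase delta, rose in 22RV1 (8.35 to 13.7 and 8.38 to 13.5 CPM) and fell in DU145 (12.5 to 8.30 and 14.4 to 8.04), the DU145 call being lost without the PAGE4 pair (adjusted p = 0.13).

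Among the proliferation genes, the difference was 0.94 for MCM2, 0.76 for CCNA2, 0.66 for CCNB1 and 0.37 for TOP2A, and CCNB1 and TOP2A were not called without the DU145 PAGE4 pair (adjusted p = 0.11 and 0.39).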

How the results depend on the processing

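No call of a member reversed under any alternative. Of 775 alternative values for 82 member calls, 671 kept the direction and the call and 104 kept the direction but missed the threshold. Over the 4 pairs with H2O2, the number of members called was 17 with DESeq2's Wald test, against 10, and 5 to 11 with 1 pair left out (all genes 2103 to 4005, against 4506). In 22RV1, leaving out a pair gave 9 to 19 members, against 18 (all genes 3702 to 6113, against 6210), and in DU145 13 to 28, against 25 (all genes 5162 to 9326, against 8225). When a pair was left out, the remaining pair of that line was assumed to vary like the others. The difference between the lines was called for 3 members with DESeq2 size factors (UNG, MUTYH and PARP2), 2 with total counts (UNG and ERCC5), 4 without the filter (UNG, MUTYH, PARP2 and GTF2H3) and 1 to 4 with 1 pair left out (all genes 2152 to 4252, against 3655). PAGE4 in the H2O2 response was called for 1 gene without the filter and 0 to 34 with 1 pair left out, against 0. PAGE4 over both lines gave 483 genes without the filter, 90 with the Wald test, 1 with the cell line as the block and 10 to 76 with 1 pair left out, against 39. PAGE4 in 22RV1 gave 0 members with total counts and 0 to 0 with 1 pair left out, against 1 (all genes 724 to 1533, against 960). PAGE4 in DU145 gave 62 genes with DESeq2 size factors, 63 with total counts, 67 without mitochondrial genes, 217 without the filter and 8 to 404 with 1 pair left out, against 38. Its difference between the lines gave 806 genes without the filter and 163 to 1280 with 1 pair left out, against 413. The fold rule gave 16532 genes without a minimum, 1770 at 50 and 2126 over 2-fold in 22RV1, against 4699, and 14226, 607 and 1160 in DU145, against 2751, with 1 member (GTF2H4) without a minimum. With total counts, the share of higher calls went from 44.3% to 61.0% over the 4 pairs, from 46.1% to 64.4% in 22RV1, from 46.3% to 36.6% for the difference in response and from 47.2% to 38.2% between the lines, where the median of all genes moved by -0.20. The fits were paired by culture or condition, and the labels give no replicate numbers for another pairing. For all of these shifts, the cause was not tested. GTF2H4 had 1 to 8 counts in the 4 DU145 libraries, which limits the precision of its values there.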
